A study of Mus musculus with 12 samples.

Results

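Serotonin receptor genes were followed one at a time, library by library, in the cortex and the cerebellum of SCA1 KI and WT mice. The genes were Htr1a, Htr1b, Htr1f, Htr2a, Htr2c, Htr4, Htr5a, Htr5b and Htr7, that is 9 of the 12 serotonin receptor genes among the 15759 entries of the normalized count table, and they were found by their symbols. In the cerebellum, transcripts of Htr1a, Htr2a, Htr4, Htr5b and Htr7 were lower in SCA1 KI, with Htr1a 11.1-fold lower. In the cortex, Htr2a was 2.35-fold and Htr1b 1.63-fold lower, and none of the 9 genes passed as higher in either region. Htr1a, 2.04-fold lower in the cortex, just missed passing there. Of the genes that passed, only Htr1a in the cerebellum and Htr2a in the cortex did so in every alternative fit and without any 1 library. The members were chosen by symbol, with the normalized counts and genotype differences of these same 12 libraries known, so the tests below place each gene among all genes of the table and are no independent support for the choice. No threshold was part of the choice.

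Serotonin reaches the cortex and the cerebellum from neurons of the raphe nuclei in the brainstem, and most of its receptors are coupled to G proteins. The receptors encoded by Htr1a, Htr1b, Htr1f, Htr5a and Htr5b act mainly through inhibitory G proteins, which lower cyclic AMP. Those of Htr2a and Htr2c act through the Gq class and phospholipase C, and those of Htr4 and Htr7 through the stimulatory class, which raises cyclic AMP. In the cortex, Htr1a and Htr2a are well known in pyramidal neurons, where their receptors have opposite effects on excitability. Htr2c is transcribed at a high level in the choroid plexus, the tissue that makes cerebrospinal fluid.

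SCA1 KI mice carry Atxn1 with 154 glutamine codons in one allele and 2 in the other, on a C57BL/6J background, and are a model of Spinocerebellar Ataxia type 1. The expanded allele sits in the mouse's own Atxn1 gene, so it is not restricted to 1 cell type. The WT mice were of the same strain, and all mice were 12 weeks old. Poly-adenylated RNA of the whole macrodissected region was sequenced in 12 libraries, 3 for each of cortex WT, cortex SCA1 KI, cerebellum WT and cerebellum SCA1 KI. Sex is given as male in the labels, while the study's methods describe both sexes combined. The cerebellar libraries come from an earlier data set of the same laboratory, so a difference in level between the regions cannot be told apart from a difference between data sets. Libraries are named here by the letters and numbers of their columns, which are B, C and D for WT and A, E and F for SCA1 KI in the cortex, and 2, 4 and 6 for WT and 1, 3 and 5 for SCA1 KI in the cerebellum.

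Between 29520855 and 51311309 reads fell on genes per library. Values are normalized counts, in which each library's reads were scaled by 1 size factor. LFC stands for the log2 fold change of SCA1 KI against WT on the log2(normalized count + 1) scale, which understates the change of genes with few reads. A DEG had a Benjamini-Hochberg adjusted p under 0.05 in limma over all 15369 genes tested and an absolute LFC over 0.25, the limits of the study. Atxn1 itself was no DEG. Its LFC was −0.31 in cortical tissue (adjusted p = 0.132) and 0.08 in cerebellar tissue (adjusted p = 0.837). The total count of Atxn1 does not show which allele was transcribed.

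Granule cell markers followed the labelled regions. They summed to 152202 to 215816 normalized counts in the cerebellar libraries and 2213 to 3532 in the cortical ones. Markers of other regions were also found in both, as given below. Many marker lists differed with genotype. Of 16 lists of cell types and neighbouring tissues, the summed level was lower in every SCA1 KI than in every WT library for 12 in the cerebellum and 7 in the cortex, and higher for 0 and 2. The 9 midbrain markers in the table summed in the cerebellum to 1560, 886 and 1178 in WT libraries 2, 4 and 6. In SCA1 KI libraries 1, 3 and 5 they summed to 411, 406 and 441. Of the 9, 8 were lower in every SCA1 KI library, where 17.5% of all tested genes were. En1 and Gata2 made up most of what was left in the SCA1 KI cerebellum, whereas Pou4f2, Shox2 and Gata3, transcription factors of midbrain neurons, were at or below 12.6 there and at or above 48.9 in the WT cerebellum. In the cortex the same list went the other way, with sums of 300 to 360 in WT, where 4 of the 9 genes were at 0 in all 3 libraries, and of 1691, 963 and 1171 in SCA1 KI libraries A, E and F. The highest sum, in library A, rested mainly on Tal1 (991) and Pou4f1 (372). Pou4f2 (37.8), Shox2 (51.4) and Gata3 (46.0) were instead highest in library F, so the list's genes did not share 1 order. Library A held the lowest SCA1 KI value for 8 of the 9 receptor genes, the exception being Htr5a.

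Forebrain lists moved in the same cerebellar libraries. Cortical excitatory neuron markers summed to 6287, 3755 and 4401 in WT libraries 2, 4 and 6 and to 3075 to 3133 in SCA1 KI, and forebrain interneuron markers to 2269, 1543 and 1818 and to 917 to 989. Both lists had the order 4, 6, 2 of the midbrain list among the WT libraries. Hippocampal markers summed to 408 to 556 in WT and 253 to 289 in SCA1 KI, striatal ones to 6206 to 7185 and 4695 to 5229, and thalamic ones to 3379 to 3509 and 2966 to 3026. The lists of habenula, serotonin neurons, Purkinje cells, astrocytes, oligodendrocytes and microglia were the others that were lower throughout, and those of granule cells, choroid plexus, hindbrain and blood overlapped. In the cortex, astrocyte markers summed to 255281 to 265122 in WT and 123129 to 187669 in SCA1 KI. Of 6, 4 were lower as DEGs and 5 were lower in every SCA1 KI library. Interneuron markers summed to 12800 to 13750 and 8609 to 9854. Of 8, 1 was a lower DEG, 4 were lower in every SCA1 KI library and 1 was higher throughout. Of all tested genes in the cortex, 10.8% were lower DEGs and 18.0% were lower in every SCA1 KI library. The part of any of these lists in the receptor differences described below was not tested.

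Choroid plexus markers varied within genotypes. In the cerebellum they summed to 23019, 74697 and 20430 in WT libraries 2, 4 and 6 and to 1435, 26388 and 77739 in SCA1 KI libraries 1, 3 and 5. WT library 2 also stood apart by 9 hindbrain markers, which summed to 712 there and to at most 137 in every other cerebellar library. It held the highest WT value for 8 of the 9 receptor genes, the exception being Htr1b. Since whole regions were sequenced, fewer cells of a type and less RNA per cell cannot be told apart.

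**Figure D1:**
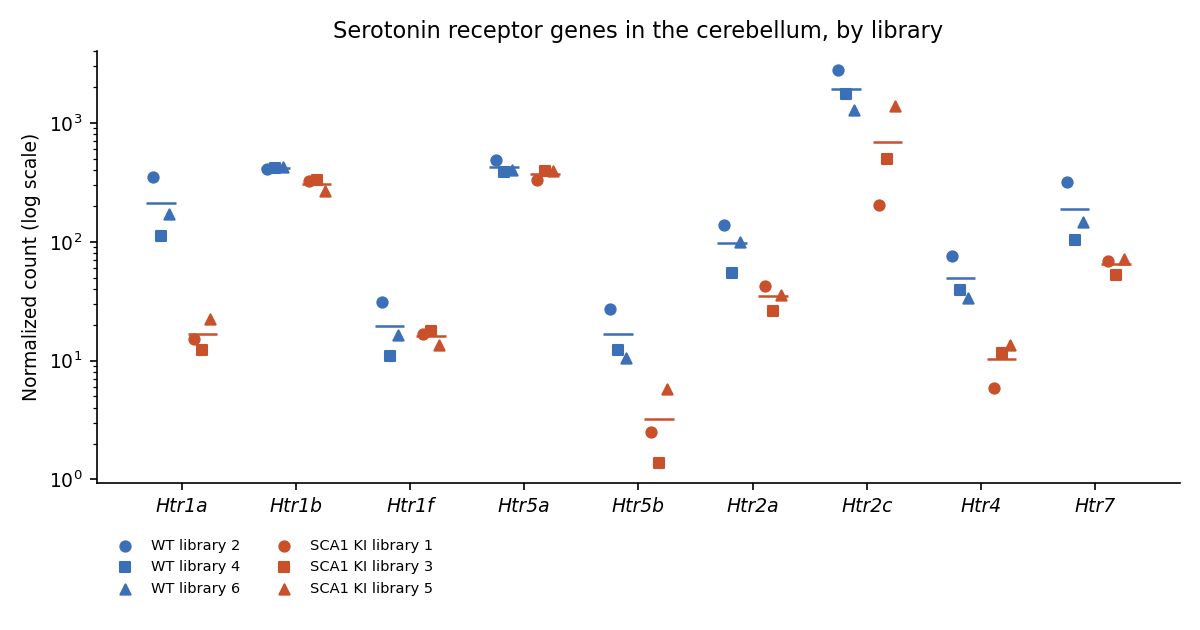
Normalized count (log axis) of each receptor gene in the 6 cerebellar libraries, with 1 point per library, WT in blue, SCA1 KI in red, and a line at the mean of each group of 3. The 3 SCA1 KI points lie below the 3 WT points for Htr1a, Htr1b, Htr5b, Htr2a, Htr4 and Htr7, and the groups overlap for Htr1f, Htr5a and Htr2c.

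**Figure D2:**
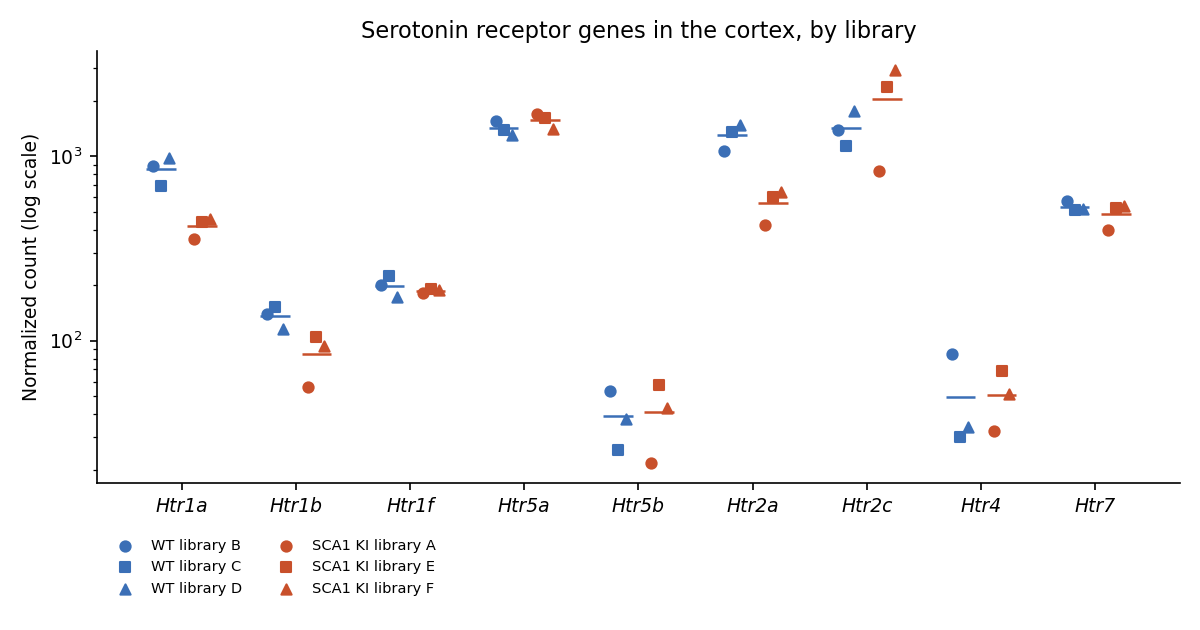
Normalized count (log axis) of each receptor gene in the 6 cortical libraries, drawn in the same way. The genotypes are apart for Htr1a, Htr1b and Htr2a and overlap for the other 6 genes.

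RefSeq start regions (GRCm38.p6) were at hand for 7 of the 9 genes, all but Htr4 and Htr5b, each running from 250 bases before to 50 after the RefSeq start of the gene. Those of Htr1a, Htr2a and Htr7 are shown, the members of the 3 coupling classes that were lower in the SCA1 KI cerebellum and are among the 7. They run from the window's first base up to the first base of the gene in GENCODE or RefSeq, whichever comes first. The letters are given 5′ to 3′ on the strand of the gene. Capitals mark a GC box, searched as GGGCGG on both strands.
Htr1a, chr13:105443443-105443638, plus strand: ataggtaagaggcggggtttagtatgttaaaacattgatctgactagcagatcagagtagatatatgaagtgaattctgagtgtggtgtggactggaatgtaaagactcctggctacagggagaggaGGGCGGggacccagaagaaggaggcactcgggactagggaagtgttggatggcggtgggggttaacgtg
Htr2a, chr14:74640624-74640839, plus strand: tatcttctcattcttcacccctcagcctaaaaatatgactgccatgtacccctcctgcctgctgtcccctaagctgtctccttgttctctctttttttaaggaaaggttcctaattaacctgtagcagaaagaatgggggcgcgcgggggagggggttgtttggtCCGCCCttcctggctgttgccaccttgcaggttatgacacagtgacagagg
Htr7, chr19:36057508-36057610, minus strand: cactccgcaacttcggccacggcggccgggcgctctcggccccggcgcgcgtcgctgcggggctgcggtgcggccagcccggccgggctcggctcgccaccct

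Htr1a and Htr2a had start regions of like base composition, and that of Htr7 differed from both. The whole windows of Htr1a and Htr2a held 52.3% and 52.0% G and C with 7 and 6 CpG dinucleotides, close to the median of 52.7% and 7 over 32851 windows. The Htr7 window held 81.0% and 46 CpG. A GC box began 123 bases before the RefSeq start in Htr1a, 85 before it in Htr2a and 31 after it in Htr1f, and 35.7% of all windows hold one. The octamers TGAATGAA and TGAATGGA, bound by CIC, a partner of ataxin-1, were found in 1.30% and 1.21% of all windows and the CRE, TGACGTCA, in 1.79%. None of them was in the 7 windows. The letters describe these windows only and were not tied to any difference in level.

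Htr1a is a gene with a single exon (chromosome 13 from 105443639 to 105448122, GRCm38, plus strand) and encodes the receptor that opens inwardly rectifying potassium channels in neurons. In the cerebellum its normalized count was 352, 111 and 170 in WT libraries 2, 4 and 6 and 15.2, 12.4 and 22.3 in SCA1 KI libraries 1, 3 and 5. The lowest WT library was thus far above the highest SCA1 KI library, although the WT libraries themselves spread widely (211 ± 126, SD, n = 3). The LFC was −3.47 (SE 0.33, adjusted p = 6.88e-05), and it passed the test in every alternative and without any 1 library, with LFCs from −3.84 to −3.02 as libraries were left out. Behind the SCA1 KI values stand 18, 18 and 23 reads.

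In the cortex Htr1a was counted at 890, 693 and 983 in WT libraries B, C and D and at 355, 442 and 454 in SCA1 KI libraries A, E and F. All SCA1 KI libraries were below all WT libraries, with means of 855 ± 148 and 417 ± 54.3 (SD, n = 3). The LFC was −1.03 (SE 0.33) with an adjusted p of 0.0505, so Htr1a just missed the limit for a DEG. It was on the other side of the limit in 6 of 10 alternatives, among them DESeq2 (adjusted p = 0.0432), edgeR (adjusted p = 0.0279) and a fit of the cortex alone (adjusted p = 0.00316). The highest adjusted p among the 10 was 0.0534. With 1 library left out it lay between 0.00713 and 0.136, and it was under the limit without cerebellar WT library 2 or 4, whose spread enters the fit. The genotype difference was larger in the cerebellum by 2.44 on the log2 scale (SE 0.47), and this interaction passed with an adjusted p of 0.00697.

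Htr1b (chromosome 9 from 81628291 to 81633828, minus strand) encodes an autoreceptor and heteroreceptor of axon terminals. In the cortex its normalized count was 140, 152 and 115 in WT libraries B, C and D and 56.2, 105 and 93.7 in SCA1 KI libraries A, E and F. The genotypes were apart by a small gap, between 105 in library E and 115 in library D. The LFC was −0.71 (SE 0.20, adjusted p = 0.0270). The call was lost without library A (LFC −0.44, adjusted p = 0.0624), B (adjusted p = 0.0724) or C (adjusted p = 0.102) and in a fit of the cortex alone (adjusted p = 0.104). Its exons share 852 bases with D430036J16Rik on the other strand, and the sources used here do not state whether strand was used in counting, so some reads may belong to that gene.

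In the cerebellum Htr1b was even among WT libraries, with 409, 417 and 427 in WT libraries 2, 4 and 6 and 327, 333 and 266 in SCA1 KI libraries 1, 3 and 5. The SCA1 KI libraries were all lower, but the LFC of −0.44 (SE 0.20) did not pass the test across both regions (adjusted p = 0.272). A fit of the cerebellum alone, where the spread is smaller, gave an adjusted p of 0.0475. Unlike for the other 8 receptor genes, the highest WT library by midbrain markers, library 2, had the lowest WT count of Htr1b.

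Htr1f (chromosome 16 from 64924729 to 65105854, minus strand) is another receptor gene of the inhibitory class, known in cortical projection neurons. Its counts were 200, 224 and 172 in the WT cortex (B, C, D) and 181, 191 and 188 in the SCA1 KI cortex (A, E, F). In the cerebellum they were 31.0, 11 and 16.3 in WT (2, 4, 6) and 16.9, 17.9 and 13.6 in SCA1 KI (1, 3, 5). The genotypes overlapped in both regions, with LFCs of −0.08 (SE 0.28, adjusted p = 0.885) and −0.15 (SE 0.28, adjusted p = 0.863). The precision in the cerebellum is limited by 9 to 34 reads per library.

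Htr5a (chromosome 5 from 27842149 to 27855088, plus strand) had the smallest standard error of the 9 genes. Its counts were 1557, 1397 and 1308 in the WT cortex (B, C, D) and 1691, 1609 and 1403 in the SCA1 KI cortex (A, E, F), and 484, 386 and 404 in the WT cerebellum (2, 4, 6) and 329, 391 and 398 in the SCA1 KI cerebellum (1, 3, 5). The genotypes overlapped in both. The LFC was 0.14 in the cortex (SE 0.11, adjusted p = 0.434) and −0.19 in the cerebellum (SE 0.11, adjusted p = 0.447), and none of the alternatives or of the 12 fits without 1 library made it a DEG.

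Htr5b (chromosome 1 from 121509842 to 121528465, minus strand), known in the habenula and parts of the hippocampus, was the gene with the fewest reads. In the cerebellum its counts were 27.4, 12.2 and 10.5 in WT (2, 4, 6) and 2.53, 1.37 and 5.81 in SCA1 KI (1, 3, 5). The groups were apart, but the SCA1 KI values stand for 3, 2 and 6 reads. The LFC was −2.08 (SE 0.49, adjusted p = 0.0265), and the call was lost with a pseudocount of 5 (LFC −1.35, adjusted p = 0.0571), in a fit of the cerebellum alone (adjusted p = 0.0534) and without library 1 (adjusted p = 0.0956), 2 (adjusted p = 0.113) or 3 (adjusted p = 0.117). The 6 habenula markers summed to 1722 to 1809 in the WT and 1066 to 1172 in the SCA1 KI cerebellum. All 6, among them Pou4f1 of the midbrain list, were lower in every SCA1 KI library, where 17.5% of all tested genes were. Their part in the result was not tested. In the cortex Htr5b was 53.5, 25.5 and 37.6 in WT (B, C, D) and 21.7, 57.7 and 43.2 in SCA1 KI (A, E, F), so the genotypes overlapped (LFC 0.03, SE 0.49, adjusted p = 0.978).

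Htr2a (chromosome 14 from 74640840 to 74709494, plus strand), the main excitatory serotonin receptor gene of cortical pyramidal neurons, was the only one of the 9 that was a DEG in both regions by the main fit. That depends on Htr1a, a DEG in the cerebellum, which just missed the limit in the cortex (limma, adjusted p = 0.0505). Htr1a passed there in 6 of 10 alternatives. In the cortex its counts were 1066, 1355 and 1471 in WT (B, C, D) and 426, 599 and 642 in SCA1 KI (A, E, F). The lowest WT library was well above the highest SCA1 KI library. The means were 1297 ± 209 and 555 ± 114 (SD, n = 3), the LFC was −1.23 (SE 0.29, adjusted p = 0.0106), and it stayed a DEG in every alternative and without any 1 library, with adjusted p from 1.34e-05 to 0.0442. Markers of cortical excitatory neurons summed to 50065 to 52717 in the WT and to 27030 to 32385 in the SCA1 KI cortex. Of 9 markers, 3 were lower as DEGs and 5 were lower in every SCA1 KI library, against 10.8% and 18.0% of all tested genes. Their part in the Htr1a and Htr2a differences was not tested.

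In the cerebellum Htr2a was 139, 55.0 and 100 in WT (2, 4, 6) and 42.1, 26.1 and 35.8 in SCA1 KI (1, 3, 5). The groups were again apart, though only by the gap between 42.1 and 55.0. The LFC of −1.40 (SE 0.29, adjusted p = 0.0131) was lost in a fit of the cerebellum alone (adjusted p = 0.0572) and without library 3 (adjusted p = 0.0650) or 6 (adjusted p = 0.0516). The regions were not shown to differ in the genotype effect, since the interaction was 0.17 (SE 0.41, adjusted p = 0.861).

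Htr2c (chromosome X from 146962513 to 147197277, plus strand) encodes a receptor whose transcript is edited, and its counts varied most among the SCA1 KI libraries. They were 1392, 1137 and 1750 in the WT cortex (B, C, D) and 832, 2367 and 2924 in the SCA1 KI cortex (A, E, F). Library A was below and libraries E and F were above all WT libraries (LFC 0.35, SE 0.59, adjusted p = 0.730). In the cerebellum Htr2c was 2771, 1739 and 1286 in WT (2, 4, 6) and 206, 493 and 1388 in SCA1 KI (1, 3, 5). Library 5 reached into the WT range. The mean LFC of −1.82 (SE 0.59) did not pass (adjusted p = 0.106), and without library 5 it was −2.52 (adjusted p = 0.0178). Among the SCA1 KI libraries the order 1, 3, 5 was also that of the choroid plexus sums (1435, 26388 and 77739), whereas among the WT libraries the highest choroid plexus sum, in library 4, went with a middle count of Htr2c. The part of the choroid plexus in these values was not tested.

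**Figure D3:**
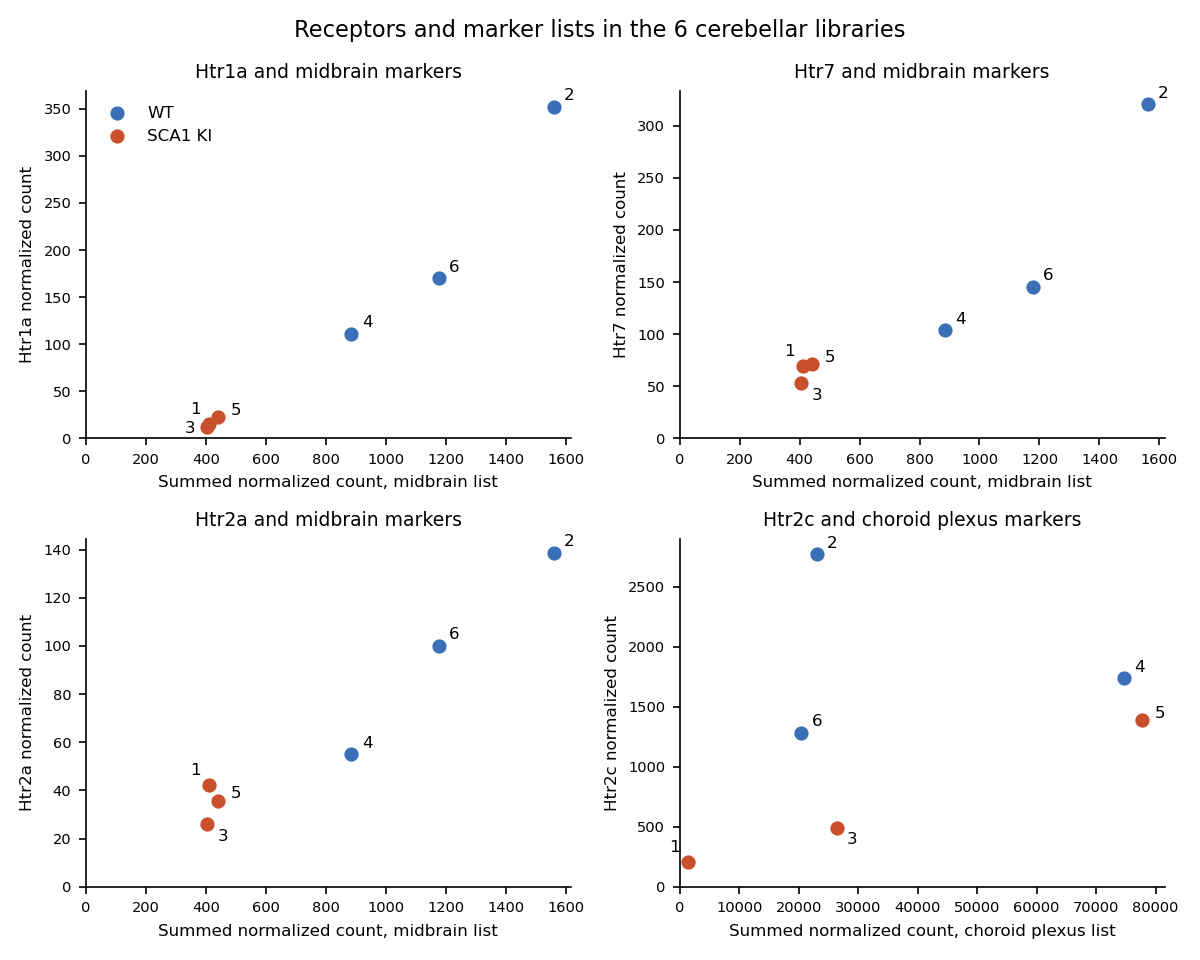
Normalized count of Htr1a, Htr7 and Htr2a against the summed normalized count of the midbrain markers, and of Htr2c against that of the choroid plexus markers, in the 6 cerebellar libraries (1 point per library, named by its number, WT in blue, SCA1 KI in red). The 3 WT points of Htr1a, Htr7 and Htr2a lie in the order 4, 6, 2 on both axes, and the SCA1 KI points lie together at midbrain sums from 406 to 441. Counts of Htr1f and Htr5a, DEGs in neither region, had the same WT order. Those of Htr4, Htr5b and Htr2c had the order 6, 4, 2, and those of Htr1b the order 2, 4, 6.

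Htr4 (chromosome 18 from 62324204 to 62496577, plus strand), a receptor gene of the stimulatory class known in the basal ganglia, hippocampus and gut, was low throughout. In the cerebellum its counts were 75.8, 39.1 and 33.8 in WT (2, 4, 6) and 5.90, 11.7 and 13.6 in SCA1 KI (1, 3, 5). The groups were clearly apart, on 7 to 17 reads in the SCA1 KI libraries. The LFC was −2.13 (SE 0.45, adjusted p = 0.0142), and the call was lost without library 1 (adjusted p = 0.0718) or 2 (adjusted p = 0.0614). In the cortex Htr4 was 84.4, 29.9 and 34.2 in WT (B, C, D) and 32.5, 68.8 and 51.4 in SCA1 KI (A, E, F), with overlap (LFC 0.13, SE 0.45, adjusted p = 0.873). The interaction of 2.27 (SE 0.63) passed with an adjusted p of 0.0444, a call that 9 of the 12 fits without 1 library lost (adjusted p up to 0.115).

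Htr7 (chromosome 19 from 35958734 to 36057507, minus strand), the other gene of the stimulatory class and known in the thalamus and hippocampus, was 320, 104 and 146 in the WT cerebellum (2, 4, 6) and 69.1, 52.9 and 71.6 in the SCA1 KI cerebellum (1, 3, 5). The groups were apart, with an LFC of −1.39 (SE 0.30, adjusted p = 0.0175). The call was lost in a fit of the cerebellum alone (adjusted p = 0.0737) and without library 1 (adjusted p = 0.0548) or 3 (adjusted p = 0.0832). In the cortex Htr7 was 572, 513 and 515 in WT (B, C, D) and 400, 524 and 541 in SCA1 KI (A, E, F), where only library A was outside the WT range (LFC −0.14, SE 0.30, adjusted p = 0.802). The interaction was 1.25 (SE 0.43, adjusted p = 0.0999), so a difference between the regions was not shown for Htr7 by limma, and DESeq2 gave an adjusted p of 0.0105.

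The count of members can be read against all genes. In the cerebellum 5 of 9 receptor genes were DEGs that were lower in SCA1 KI, where 4.44% of all tested genes were, and 6 of 9 had all SCA1 KI libraries below all WT libraries, where 17.5% of all genes did. All 9 LFCs were below 0, with a median of −1.40 against −0.0049 over all tested genes. In the cortex 2 of 9 were lower DEGs, against 10.8% of all genes, and 3 of 9 had no overlap, against 18.0%. The median LFC there was −0.08, against −0.0028. The interaction passed for 2 of 9 genes, Htr1a and Htr4, against 8.15% of all genes. Since the genes were listed with such results known, the shares describe the list and are no test of it.

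**Figure D4:**
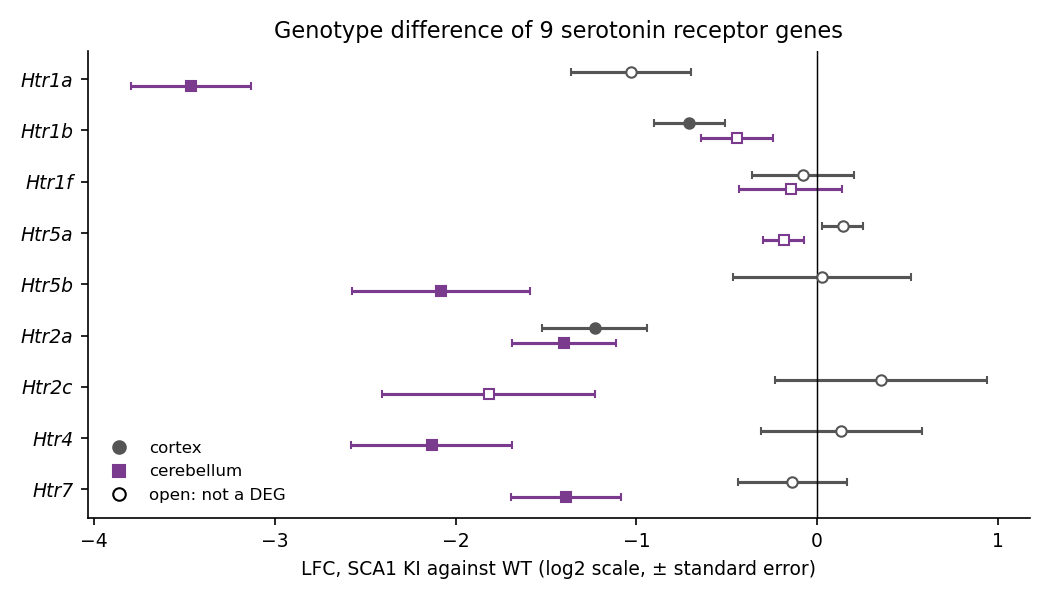
LFC of SCA1 KI against WT on the log2(normalized count + 1) scale for the 9 receptor genes, with the standard error from limma as bars, circles for the cortex, squares for the cerebellum, and filled symbols for DEGs. The 9 cerebellar values lie between −3.47 and −0.15, while in the cortex the filled symbols are those of Htr1b and Htr2a.

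Between the WT groups, 6 of 9 genes were higher in the cortex (31.0% of all tested genes were), and Htr1b was higher in the cerebellum. Htr2a showed the largest difference, 3.80 on the log2 scale (SE 0.29, adjusted p = 1.07e-07), followed by Htr1f with 3.40 (SE 0.28), Htr1a with 2.16 (SE 0.33), Htr5a with 1.74 (SE 0.11), Htr7 with 1.65 (SE 0.30) and Htr5b with 1.23 (SE 0.49, adjusted p = 0.0408). The WT libraries of Htr5b overlapped between the regions. Its call was lost after removal of the trends on length and GC content (limma, adjusted p = 0.0527). Thinning (adjusted p = 0.0775) and fits without library 4, 6, B or D (adjusted p up to 0.142) lost it as well. Htr1b was lower in the cortex by −1.62 (SE 0.20, adjusted p = 9.73e-06). Htr2c and Htr4 did not pass (−0.39, SE 0.59, adjusted p = 0.579, and −0.07, SE 0.45, adjusted p = 0.900). Region and data set cannot be told apart in these values.

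Levels of different genes were compared per kilobase of exon. In the WT cortex the order of the mean normalized count per kilobase was Htr5a (264), Htr2a (231), Htr1a (191), Htr7 (157) and Htr2c (153), then Htr1f (76.9), then Htr1b (28.7), Htr5b (20.1) and Htr4 (10.1). Neighbours in that order overlapped between libraries except at the steps from Htr2c to Htr1f and from Htr1f to Htr1b. In the WT cerebellum Htr2c led with 207, apart from Htr1b (88.4), Htr5a (79.0), Htr7 (55.9) and Htr1a (47.1), which overlapped as neighbours. Next came Htr2a (17.5), Htr4 (10.1), Htr5b (8.63) and Htr1f (7.54). The lowest library of Htr1a (24.79) was barely above the highest of Htr2a (24.75). The annotation joins all exons of Htr2c to 9328 bases, and with its longest transcript of 4883 bases Htr2c came first in the WT cortex as well, at 292.

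The orders were not the same in SCA1 KI. In the cortex Htr2a (99.1 per kilobase) and Htr1a (93.0) came behind Htr7 (144) with no overlap between Htr7 and Htr2a. Htr2c came second there at 219 per kilobase, in libraries that ranged from 89.2 to 313 and overlapped those of both neighbours. With its longest transcript Htr2c came first in the SCA1 KI cortex, at 418, as it did in the WT cortex. In the cerebellum Htr1f, at 6.24 per kilobase, came ahead of Htr2a, Htr1a, Htr4 and Htr5b although it was no DEG, and overlapped Htr2a. Htr1a was at 3.70 per kilobase there, a level whose libraries overlapped those of Htr2a (6.19) and Htr4 (2.11).

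**Figure D5:**
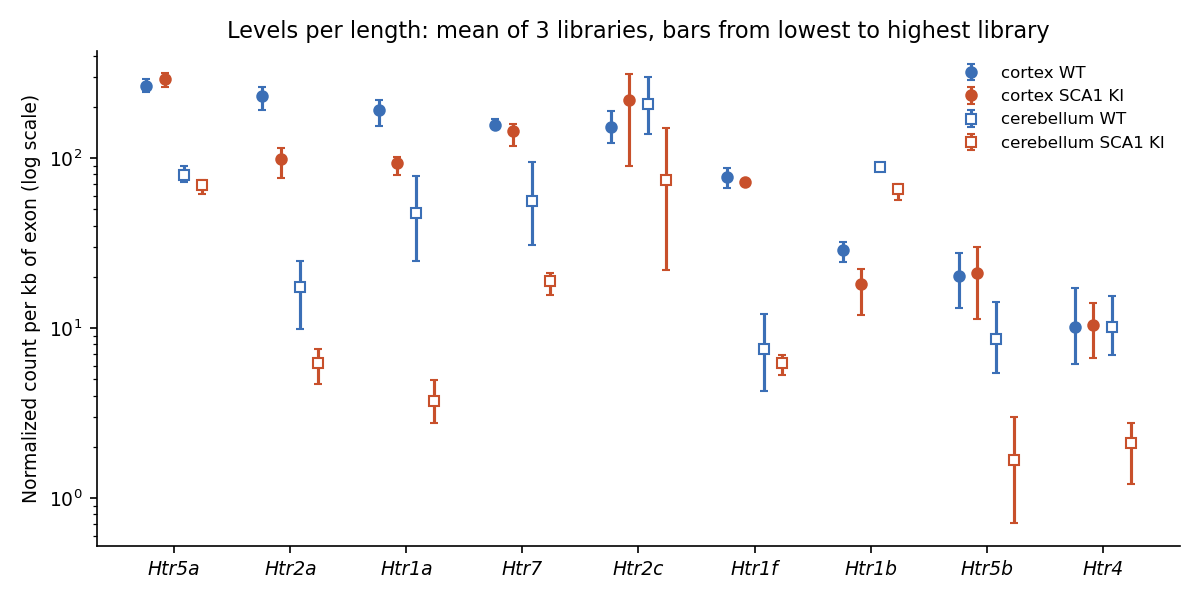
Mean normalized count per kilobase of exon (log axis) of the 9 genes in the 4 groups, with bars from the lowest to the highest of 3 libraries, filled circles for the cortex and open squares for the cerebellum, WT in blue and SCA1 KI in red. Htr1b is the gene whose cerebellar levels all lie above its cortical ones.

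The other serotonin receptor genes of the table, Htr1d, Htr3a (a subunit of the ion channel receptor) and Htr6, were no DEGs in either region. In the cortex Htr6 was 152, 149 and 125 in WT (B, C, D) and 65.0, 86.0 and 89.2 in SCA1 KI (A, E, F). All SCA1 KI libraries were lower, with an LFC of −0.83 (SE 0.38, adjusted p = 0.162). Htr3a was also lower in every SCA1 KI cortex library (LFC −0.58, SE 0.62, adjusted p = 0.571), and Htr1d overlapped (LFC −0.75, SE 0.59, adjusted p = 0.437). In the cerebellum Htr1d was 42.9, 28.1 and 24.5 in WT (2, 4, 6) and 18.5, 13.7 and 14.5 in SCA1 KI (1, 3, 5), apart but not a DEG (LFC −0.95, SE 0.59, adjusted p = 0.466). By the limma fit over both regions, leaving these 3 genes off the list thus leaves off no DEG. Cerebellar libraries with 1 to 20 reads of Htr3a and 3 to 13 of Htr6 entered that fit. The alternatives were not examined for these genes.

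Of 11 tested genes for the synthesis, transport and breakdown of serotonin, 3 rose in the cortex and 2 fell in the cerebellum. The shares of all tested genes with these calls were 4.82% for the cortex and 4.44% for the cerebellum. The genes that rose were Slc29a4, a low-affinity monoamine transporter (LFC 1.12, adjusted p = 9.70e-05), Maoa, which breaks down serotonin (LFC 0.42, adjusted p = 0.00384), and Spr, which makes the cofactor of tryptophan hydroxylase (LFC 0.35, adjusted p = 0.0175). Those that fell were Slc22a3, another low-affinity transporter (LFC −1.60, adjusted p = 0.0150), and Maob (LFC −0.29, adjusted p = 0.0429). None of the genes that define serotonin neurons was a DEG in either region, and Fev was too low to test. Slc6a4, the serotonin transporter gene, was at 152 in SCA1 KI cortex library F and at 8.86 or less in the other cortical libraries, and at 86.7 in WT cerebellum library 4 and 16.4 or less in the other cerebellar ones. Tph2, which makes serotonin in neurons, was likewise highest in library F (261) and in library 4 (134). Ddc, which makes serotonin and dopamine from their precursors, was instead even within the cerebellar groups, at 244, 236 and 212 in WT (2, 4, 6) and 143, 148 and 146 in SCA1 KI (1, 3, 5). The groups were apart with an LFC of −0.65 (SE 0.18, adjusted p = 0.0574). Slc18a2 and Fev were also lower in every SCA1 KI cerebellar library, as were 17.5% of all tested genes. Slc18a2 had 4 to 9 reads there against 10 to 66 in WT. Fev had 6 to 7 against 6 to 12, so only its scaled values were apart. Library 4 held the lowest WT count of 5 of the 9 receptor genes, Htr1a, Htr1f, Htr5a, Htr2a and Htr7. Library F held the highest SCA1 KI count of 4 of the 9, Htr1a, Htr2a, Htr2c and Htr7.

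Downstream of the receptors, 10 of 28 genes for G proteins and their first effectors fell in the cortex and 2 fell in the cerebellum, with none higher. The shares of all tested genes were 10.8% and 4.44%, so the cerebellar count was near the background. In the cortex they included Rgs4, which shortens signals of the inhibitory and Gq classes (LFC −1.09, adjusted p = 0.00197), the adenylyl cyclase genes Adcy1 (LFC −0.89, adjusted p = 0.000155) and Adcy9 (LFC −0.81, adjusted p = 1.14e-05), the phospholipase C genes Plcb1 (LFC −0.70) and Plcb4 (LFC −0.64), and the potassium channel genes Kcnj6 (LFC −0.66) and Kcnj9 (LFC −0.62). In the cerebellum they were Plcb3 and Adcy2 (LFC −0.35, adjusted p = 0.0430). Plcb3 counted 2433, 2858 and 2799 in WT (2, 4, 6) and 1416, 1447 and 1445 in SCA1 KI (1, 3, 5), and both groups were tight (LFC −0.90, SE 0.09, adjusted p = 9.18e-05). These genes serve many receptors besides those of serotonin. The median LFC of the 28 genes was −0.16 in the cortex and −0.08 in the cerebellum.

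Of 11 genes whose proteins bind serotonin receptors or edit their transcripts, 4 fell in the cortex and none passed in the cerebellum, beside 10.8% and 4.44% of all tested genes. They were Adarb1, an editing enzyme that acts on the Htr2c transcript (LFC −0.54, adjusted p = 0.00106), Dlg4, a scaffold of the synapse (LFC −0.52, adjusted p = 0.000123), Arrb1 (LFC −0.44, adjusted p = 0.00479) and the receptor kinase gene Grk2, listed under its older symbol Adrbk1 (LFC −0.28, adjusted p = 0.00914). The median LFC of the 11 genes was −0.04 in the cortex and 0.03 in the cerebellum.

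For each receptor gene the 3 tested genes with the most similar course over the 12 libraries were found by Pearson's r of log2(normalized count + 1) after subtraction of the region mean. The libraries share depth, genotype and dissection, so the r values are descriptions. The closest genes depended on the libraries used. Over the cerebellar libraries alone, only Camkv for Htr1a and Pcdh8 for Htr7 stayed among the 3 closest. The lowest of the others was Irgq for Htr1b, at rank 426. Htr1a was closest to Sst (r = 0.991), Camkv (r = 0.988) and Rasgrf2 (r = 0.986), where Sst and Rasgrf2 also stand on the marker lists for forebrain interneurons and cortical excitatory neurons. Sst, the somatostatin gene, was at 864, 368 and 528 in the WT cerebellum (2, 4, 6) and at 56.4, 41.2 and 72.6 in the SCA1 KI cerebellum (1, 3, 5), which is the order of Htr1a in every library of both groups. Htr7 was closest to Crtac1 (r = 0.982), Pcdh8 (r = 0.979) and Galnt16 (r = 0.976), and Htr2a to Epha10 (r = 0.965), Fads1 (r = 0.963) and Ntsr2 (r = 0.962).

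Htr2c was closest to Slc22a3 (r = 0.926), the transporter gene named above, then Myo5b and Pdgfc. Htr1b had Zmat3 (r = 0.982), Clasp1 and Irgq, Htr5b had Gabrg3 (r = 0.954), Cpne7 and Insm1, and Htr4 had Foxp2 (r = 0.949), Col24a1 and Cldn11. Htr1f was closest to Klf5 (r = 0.925), Rcsd1 and Lphn2, and Htr5a to AW495222 (r = 0.909), AI429214 and Ninj2. These and Htr2c, the genes that were DEGs in neither region, had the lowest r with their closest gene. No gene was among the 3 closest of more than 1 receptor gene.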

How the data were processed

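RNA of 12 libraries was analysed from 1 table of normalized counts. Per the labels and the study's methods, the authors mapped reads to mm10 (STAR), counted them per gene (featureCounts) and scaled the counts by DESeq2 size factors, so that the deposited signal is a normalized count. All values came out as whole reads (tolerance 0.01), which were recovered for DESeq2 1.42.0 and edgeR 4.0.16. Reads of overlapping genes were not separated, and strandedness is not given in the sources used here. Pairs of replicates differed beyond sampling noise, and the labels do not say whether libraries came from separate animals, so p-values measure the spread between libraries.

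limma 3.58.1 (R 4.3.3, empirical Bayes with a trend) was fitted to log2(normalized count + 1) of 15369 genes, those whose mean normalized count reached 10, with all 12 libraries and 4 group means, giving the genotypes in each region, their interaction and the WT regions. Adjusted p are Benjamini-Hochberg values over all tested genes, and the scripts were tested on simulated data. All 9 receptor genes passed the filter. Columns carry no replicate number of the labels. Genes named were the receptors, the genes of 4 serotonin lists that were called, markers of 16 lists, Atxn1 and, for each receptor, the 3 genes with the highest correlation. Members and lists were chosen with earlier results of these data known. Positions are from GENCODE vM21 on GRCm38 (mm10), which matched 15009 of 15759 symbols. Alternatives were a pseudocount of 0.5 or 5, all genes kept, a minimum mean of 100, each region alone, median centring, removal of trends on length and GC content, DESeq2, edgeR, a limit of 1 on the absolute LFC and 12 fits without 1 library. Thinning of all libraries to 29520855 reads was added after the data were seen.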

Additional observations from a re-analysis of the deposited data

Results flagged for a closer look

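For 2 of the 9 receptor genes the interaction of region and genotype passed the test, that is the LFC in the cortex minus that in the cerebellum differed from 0. For Htr1a it was 2.44 (limma, adjusted p = 0.00697), with all SCA1 KI libraries below all WT libraries in both regions, and it passed in every alternative and without any 1 library (adjusted p up to 0.0244). For Htr4 it was 2.27 (limma, adjusted p = 0.0444), with the genotypes apart in the cerebellum and overlapping in the cortex, and it was lost without 9 of the 12 libraries in turn, with a pseudocount of 5 (adjusted p = 0.0525) and after thinning (adjusted p = 0.0626). The midbrain markers and several forebrain lists described above were also lower in every SCA1 KI cerebellar library, and their part was not tested, and region and data set cannot be told apart.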

How the results depend on the processing

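No paired analysis was possible because the library columns carry none of the replicate numbers of the labels. Over single genes, comparisons and settings, 719 values kept direction and side of the threshold, 35 lost and 16 gained the call, and 23 changed sign, none of them of a called difference. Lower receptor genes in the cortex numbered 2, and 3, Htr1a being added, with a pseudocount of 5, a minimum mean of 100, DESeq2, edgeR or thinned reads, 1 at an absolute LFC over 1, and 1 to 3 with 1 library left out (1 without A, B or C, and 3 without cerebellar library 2 or 4). In the cerebellum they numbered 5, and 3 with a minimum mean of 100, where Htr4 and Htr5b were not tested. A pseudocount of 5 lost Htr5b. With each region alone they numbered 3, with Htr2a, Htr5b and Htr7 lost and Htr1b gained. With 1 library left out they numbered 2 to 6 (2 without library 1 or 3, 3 without library 2, 6 without library 5). The interaction passed for 2 genes, for 1 with a pseudocount of 5, a minimum mean of 100 or thinned reads, for 4 with DESeq2, and for 1 to 3 with 1 library left out (1 without 1, 2, 3, C, D, E or F, 3 without 5 or A). The cause was not tested. Thinning gave Htr1f an LFC of 0.0076 in the cerebellum and an interaction of −0.0726, removal of the trends on length and GC content gave an interaction of −0.0153 for Htr1f and a region difference of 0.0041 for Htr4. With 1 library left out, LFCs in the cortex ran from −0.22 to 0.00028 for Htr7, from −0.18 to 0.013 for Htr1f, from −0.27 to 0.42 for Htr5b, from −0.14 to 0.59 for Htr4 and from −0.00093 to 0.91 for Htr2c, and in the cerebellum from −0.47 to 0.24 for Htr1f. Interactions then ran from −0.31 to 0.39 for Htr1f, from −0.13 to 0.53 for Htr2a and from −0.44 to 0.0055 for Htr1b, and the region difference from −0.53 to 0.28 for Htr4. Depth limits Htr5b, Htr4 and Htr1f in the cerebellum most.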
